A study of Mus musculus with 96 samples.

Results

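The cytosolic ribosomal protein genes encode the protein parts of the ribosome that works in the cytosol. They were taken as the protein-coding genes whose symbols start with Rpl or Rps and follow the family's numbering, together with Rpsa and Fau, leaving out pseudogene copies and the Rps6k kinases. This rule used names and no measured values, and it found 84 of the 54532 gene models in the files, of which 33 are named for the small subunit (Rpsa and Fau included) and 51 for the large subunit. Of them, 81 passed the filter on low counts in every comparison, and Rpl3l, Rpl10l and Rpl39l, with 22, 20 and 65 counts over all 96 libraries, did not.

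The study measured RNA in microglia, the resident macrophages of the brain, sorted from wild-type mice on the surface proteins CD11b (present), Fcrls (present) and Ly6C (absent), with 1000 cells lysed per library for Smart-seq2, a full-length RNA sequencing protocol for small samples. Young mice (3 to 5 months) and old mice (20 to 22 months) had abdominal surgery or were controls, and cells were taken at 6 h or 48 h from the hemisphere and the hippocampus of the same 48 animals, which gives 16 groups. Each of the 8 young groups held 4 animals; the old groups held 8 controls and 7 after surgery at 6 h, and 8 controls and 9 after surgery at 48 h. The labels do not say what the control animals underwent. All animals of 6 h had lower sort numbers, taken from the library names, than those of 48 h. At each time the highest sort numbers were all of old animals, and 13 of the 32 old animals lay among the young.

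Each ribosome needs a copy of nearly every ribosomal protein, so these genes are transcribed at high and coordinated levels in most cells. Their mRNAs usually begin with a run of pyrimidines (C and T), the 5' terminal oligopyrimidine or TOP motif, through which the mTORC1 pathway and the RNA-binding protein Larp1 control their translation. Macrophages, microglia among them, adjust ribosome production with growth and activation.

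Starts of transcription are shown for 5 genes and for Rpl7l1, whose 2 regional estimates had opposite signs. The 5 are those called higher in old animals in both regions (adjusted p below 0.05, edgeR) by the pooled comparison given below. Each line gives 30 bases before and 20 bases after the RefSeq start (GRCm38.p6), 5' to 3', with the longest unbroken run of C and T in capitals. The windows are chr1:39367821-39367870 (plus strand) for Rpl31, chr4:86857348-86857397 (minus strand) for Rps6, chr9:64173357-64173406 (plus strand) for Rpl4, chr5:65391412-65391461 (minus strand) for Rpl9, chrX:102189372-102189421 (minus strand) for Rps4x, chr17:46782637-46782686 (minus strand) for Rpl7l1.
Rpl31: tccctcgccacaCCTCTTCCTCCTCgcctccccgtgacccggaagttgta
Rps6: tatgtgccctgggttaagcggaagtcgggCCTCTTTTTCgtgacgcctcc
Rpl4: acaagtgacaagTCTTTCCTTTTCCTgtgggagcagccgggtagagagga
Rpl9: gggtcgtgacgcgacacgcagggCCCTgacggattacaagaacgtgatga
Rps4x: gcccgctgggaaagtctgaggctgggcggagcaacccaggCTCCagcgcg
Rpl7l1: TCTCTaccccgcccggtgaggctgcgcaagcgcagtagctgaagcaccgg
The runs were 13 bases in Rpl31, 10 in Rps6 and 14 in Rpl4, and 4 in Rpl9, 4 in Rps4x and 5 in Rpl7l1 within these 50 bases. Beyond the letters shown, Rpl9 holds a run of 10 bases from base 30 and Rpl4 one of 15 bases from base 27, with the start of transcription as base 1. RefSeq promoters were found for 64 of the 84 genes, with 76 starts. A run of at least 8 pyrimidines on the coding strand, between 20 bases before and 50 after the start, was present at 67.1% of these starts, at 25.4% of all 32851 starts and at 24% of the 75 starts of mitochondrial ribosomal protein genes. In the whole window of 250 bases before to 50 after the start, CCGGAAG on either strand was found at 35.5% of the ribosomal protein starts and 8.86% of all starts, and AAGATGG at 17.1% and 6.34%. Mitochondrial ribosomal protein starts held these 2 motifs at nearly the same shares, 34.7% and 17.3%; TATAA on the coding strand in the 50 bases before the start was found at 6.58% of the cytosolic and 0% of the mitochondrial starts, and at 4.93% of all. These are matches of letters, described without a test.

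Library totals ran from 1874168 to 3778939 counts, but 15 repeat-like or ribosomal RNA models held 53.05% to 81.2% of each. Outside them 465922 to 1500332 counts remained, of which 7704 to 23676 fell on the 84 genes. All 12 microglial markers tested for the label were present in every library, with P2ry12 at 208 to 967 CPM (counts per 1000000, scaled by TMM, edgeR's trimmed-mean normalization). Markers of other cells were low but not absent. The summed level of 6 choroid plexus markers ran from 3.95 to 1447 CPM. That of 8 B cell markers ran from 40.8 to 635 CPM. The neutrophil genes S100a8 and S100a9 were at 0 in 76 and 78 libraries. Their zeros do not show that neutrophil RNA was absent, since they are only 2 of the neutrophil markers used below. In 6 libraries at 6 h few genes had a value of 1 (4.11% to 24.7% of those with 1, 2 or 3, under a limit set at 30%), unlike plain read counts (young control hippocampus replicates 1 and 4, old surgery hippocampus replicates 5 and 6, old surgery hemisphere replicate 6, old control hemisphere replicate 7). They are called the stepped libraries, and results are also given without them where they differ.

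Levels between genes were compared as CPM per kilobase of summed exons, averaged over the 96 libraries. Rplp1, an acidic stalk protein of the large subunit, stood highest at 269.4 CPM per kb, and others among the highest were Rps29 at 145, Rps3a1 at 97.9 and Fau, which encodes a fusion of a ubiquitin-like protein with a small-subunit protein, at 96.7. The median of the 81 tested genes was 28.2 CPM per kb. Among tested genes the lowest were Rpl5 at 2.36, Rpl27 at 3.55, Rpl12 at 4.68, Rpl22 at 6.68 and Rpl22l1 at 6.96 CPM per kb. With the length of the principal transcript instead, Rplp1 and Rps29 kept the top ranks and Rpl5 and Rpl27 the lowest among tested genes, and the ranks of the 2 scales correlated at a Spearman rho of 0.795 across the 81 genes.

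**Figure D1:**
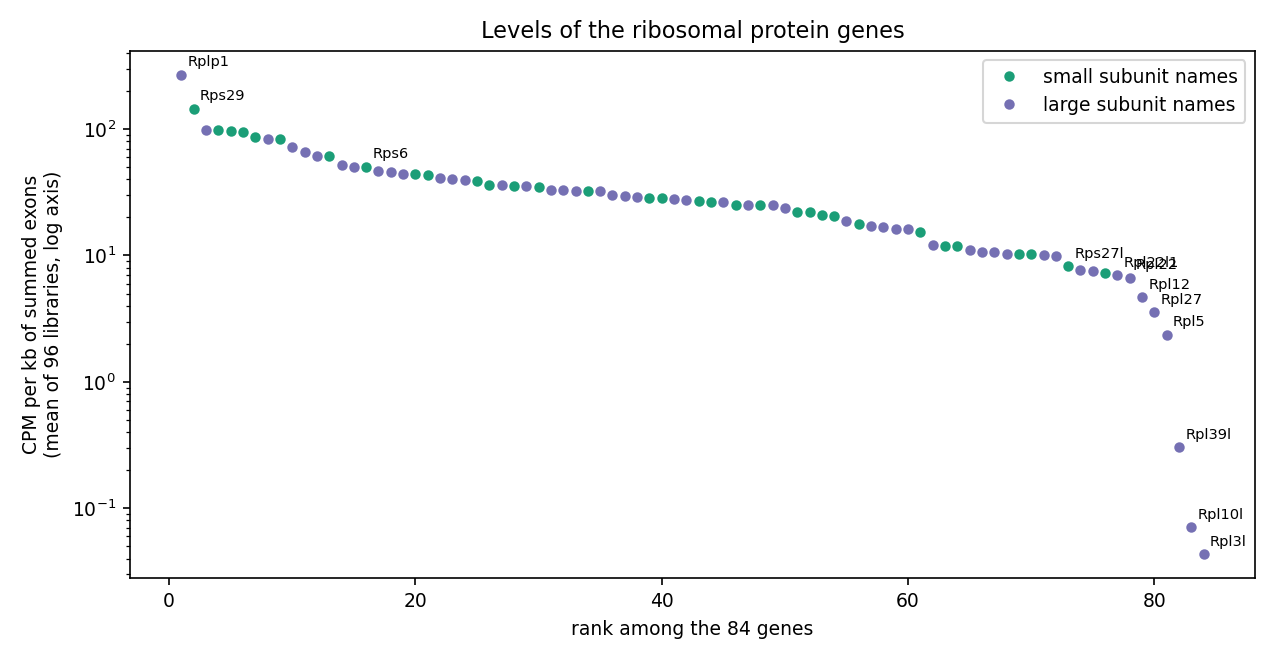
Level of each of the 84 genes as CPM per kb of summed exons (mean of 96 libraries, log axis) against its rank, coloured by subunit name. Rplp1 lies at 269.4 and 3 paralogues, Rpl39l, Rpl10l and Rpl3l, lie below 1.

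Paralogues named with an added l were far lower than their partners or close to them, depending on the pair. Rpl3 stood at 46.3 CPM per kb and Rpl3l, a copy known from muscle, at 0.0435. Rpl10 stood at 35.3 and Rpl10l, known from testis, at 0.0706, while Rpl39 stood at 29.2 and Rpl39l at 0.304. Rpl22 and Rpl22l1 were at 6.68 and 6.96 per kb of summed exons, but at 9.48 and 25.1 per kb of the principal transcript. On the summed-exon scale, Rps27 was at 61.2 against 8.21 for Rps27l and Rpl7 at 26.7 against 7.69 for Rpl7l1.

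Reads of these genes can be split with processed pseudogenes, which are near-identical copies. A match was an alignment of at least 90% identity and at least 60% as long as the member's principal transcript. By this rule 506 pseudogene models matched a member, and together they held 39883 counts against 1209656 at the 84 genes. Copies of genes with long principal transcripts can be missed. Rpl31, at 1049 bases, matched 0 models, though pseudogene models named after it exist. For Rpl11 only 51.98% of these combined counts lay at the gene itself. The shares were 74.1% for Rps7, 75.04% for Rpl13 and 76.1% for Rpl14, so the levels of all of these genes are uncertain.

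The summed level of the family differed in the same direction between the ages throughout, and it was not tested in any comparison. It also differed with surgery in young hippocampus, in opposite directions at the 2 times. There its mean share of the counts outside the 15 largest models was 1.68% in controls and 1.46% after surgery at 48 h. At 6 h these means were 1.6% and 1.76% (n = 4 each). The planned tests of single genes called 0 members for age, as for surgery. The pooled comparison given below was run for age and not for surgery. The summed counts of the 84 genes made up a larger part of each library in old than in young animals in all 8 pairs of age groups (2 treatments, 2 times, 2 regions), taken as percent of the counts that remain without the 15 largest models. In the hemisphere the share was 1.55% ± 0.179 (SD, n = 16) in young and 1.96% ± 0.285 (n = 32) in old libraries. In the hippocampus it was 1.63% ± 0.242 (n = 16) in young and 1.91% ± 0.241 (n = 32) in old libraries. The ranges overlapped in both regions, from 1.24% to 1.83% against 1.31% to 2.78% in the hemisphere and from 1.28% to 2.23% against 1.4% to 2.47% in the hippocampus.

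The ratio of old to young group means lay between 1.13 and 1.29 in 7 of the 8 pairs. In 3 pairs the old and young libraries did not overlap at all: control hemisphere at 48 h, control hippocampus at 6 h and surgery hippocampus at 48 h. With the sum as TMM-scaled CPM only control hippocampus at 6 h was without overlap: young libraries reached 4343 CPM and old ones began at 4076 CPM in control hemisphere at 48 h, and the values were 4220.2 and 4176 CPM in surgery hippocampus at 48 h. The smallest ratio, 1.06, was that of control hippocampus at 48 h, where the young libraries held shares of 1.47%, 2.23%, 1.355% and 1.67%. The second of these lies above all 8 old controls. Whether a share of this kind reflects more ribosomal protein mRNA per cell or a change in the rest of the RNA cannot be told apart in 1000-cell libraries.

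**Figure D2:**
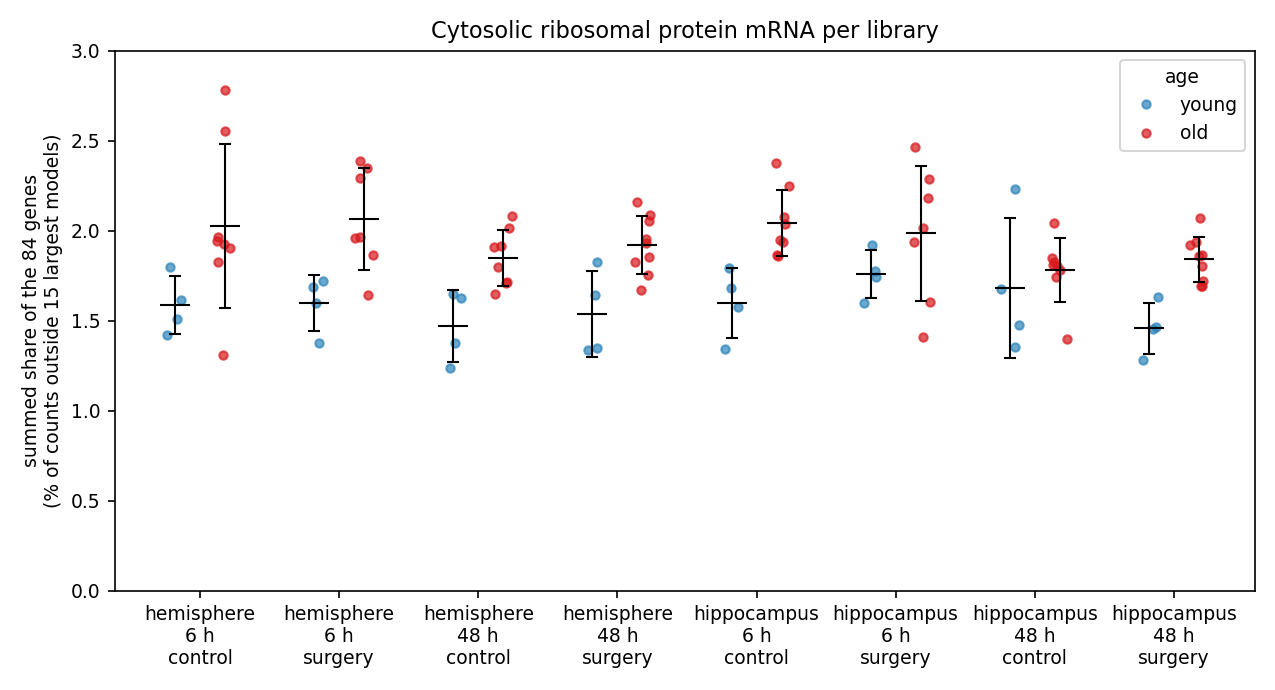
Summed share of the 84 genes in each library (percent of counts outside the 15 largest models), by region, time, treatment and age, with the mean and SD of each group in black. Old means lie above young means in each of the 8 pairs, and the pair of control hippocampus at 48 h holds the young library at 2.23%.

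Other RNA also differed in share between the ages. The share of mitochondrially encoded RNA, measured the same way, was 0.836% ± 0.139 (SD, n = 16) in young and 1.05% ± 0.182 (n = 32) in old hemisphere libraries, and 0.82% ± 0.131 (n = 16) and 1.03% ± 0.207 (n = 32) in the hippocampus. The nuclear RNA Malat1 was lower in old libraries, at 0.528% ± 0.108 (n = 16) in young and 0.477% ± 0.0923 (n = 32) in old hemisphere libraries, and at 0.533% ± 0.106 (n = 16) and 0.468% ± 0.0749 (n = 32) in the hippocampus. The models named as pseudogenes (-ps) of the 84 genes, at 0.11% ± 0.0173 (n = 16) in young and 0.14% ± 0.0223 (n = 32) in old hemisphere libraries, and at 0.126% ± 0.0218 (n = 16) and 0.139% ± 0.023 (n = 32) in the hippocampus, were higher in old libraries, as mitochondrial RNA was. The part of these differences in the result for the ribosomal protein genes was not tested.

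Gene by gene, each of the 8 planned comparisons of old with young called none of the 81 tested genes at an adjusted p below 0.05 (edgeR's quasi-likelihood test, Benjamini-Hochberg adjustment over all genes tested). The calls over all genes were few as well, from 0% (surgery hippocampus at 6 h, 0 of 13703) to 0.114% (surgery hemisphere at 48 h, 14 of 12250). For the hemisphere the shares called were 0.0784% in controls at 6 h, 0.00784% after surgery at 6 h and 0.0898% in controls at 48 h. For the hippocampus they were 0.0584% in controls at 6 h, 0.0834% in controls at 48 h and 0.0834% after surgery at 48 h.

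The estimates nonetheless lay on one side. In the hemisphere the median log2 fold change of the 81 genes was 0.41 in controls at 6 h, 0.41 after surgery at 6 h, 0.31 in controls at 48 h and 0.29 after surgery at 48 h, with 79, 79, 76 and 77 genes above 0, against 53.6%, 53.3%, 52.7% and 48.9% of all genes tested. At an unadjusted p below 0.05, 40, 34, 27 and 28 of the 81 genes were higher in old animals and 0 lower, against 3.56%, 3.32%, 3.62% and 3.48% of all genes higher and 3.24%, 2.64%, 2.98% and 2.85% lower. In the hippocampus the medians were 0.36 in controls at 6 h, 0.23 after surgery at 6 h, 0.06 in controls at 48 h and 0.31 after surgery at 48 h, with 75, 70, 49 and 78 genes above 0, against 48.6%, 52.7%, 49.8% and 48.6% of all genes tested. Unlike the other 7, the control comparison at 48 h thus had a share of positive estimates near that of all genes. There 28, 11, 1 and 28 genes were higher at an unadjusted p below 0.05 and 0 lower, against 4.56%, 3.37%, 4.06% and 5.14% of all genes higher and 3.79%, 3.34%, 3.85% and 6.14% lower. The medians over all genes tested lay between -0.02 and 0.03 in these 8 comparisons. The young control hippocampus replicate 2 at 48 h, the library with the 2.23% share, moved the lowest of these medians: without it the median of control hippocampus at 48 h was 0.23. Over the 25 fits that leave out 1 library, that median ran from -0.03 to 0.23. With only old animals sorted among the young, the median of surgery hippocampus at 6 h was 0.45 in place of 0.23, and that of control hippocampus at 48 h was 0.04.

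**Figure D3:**
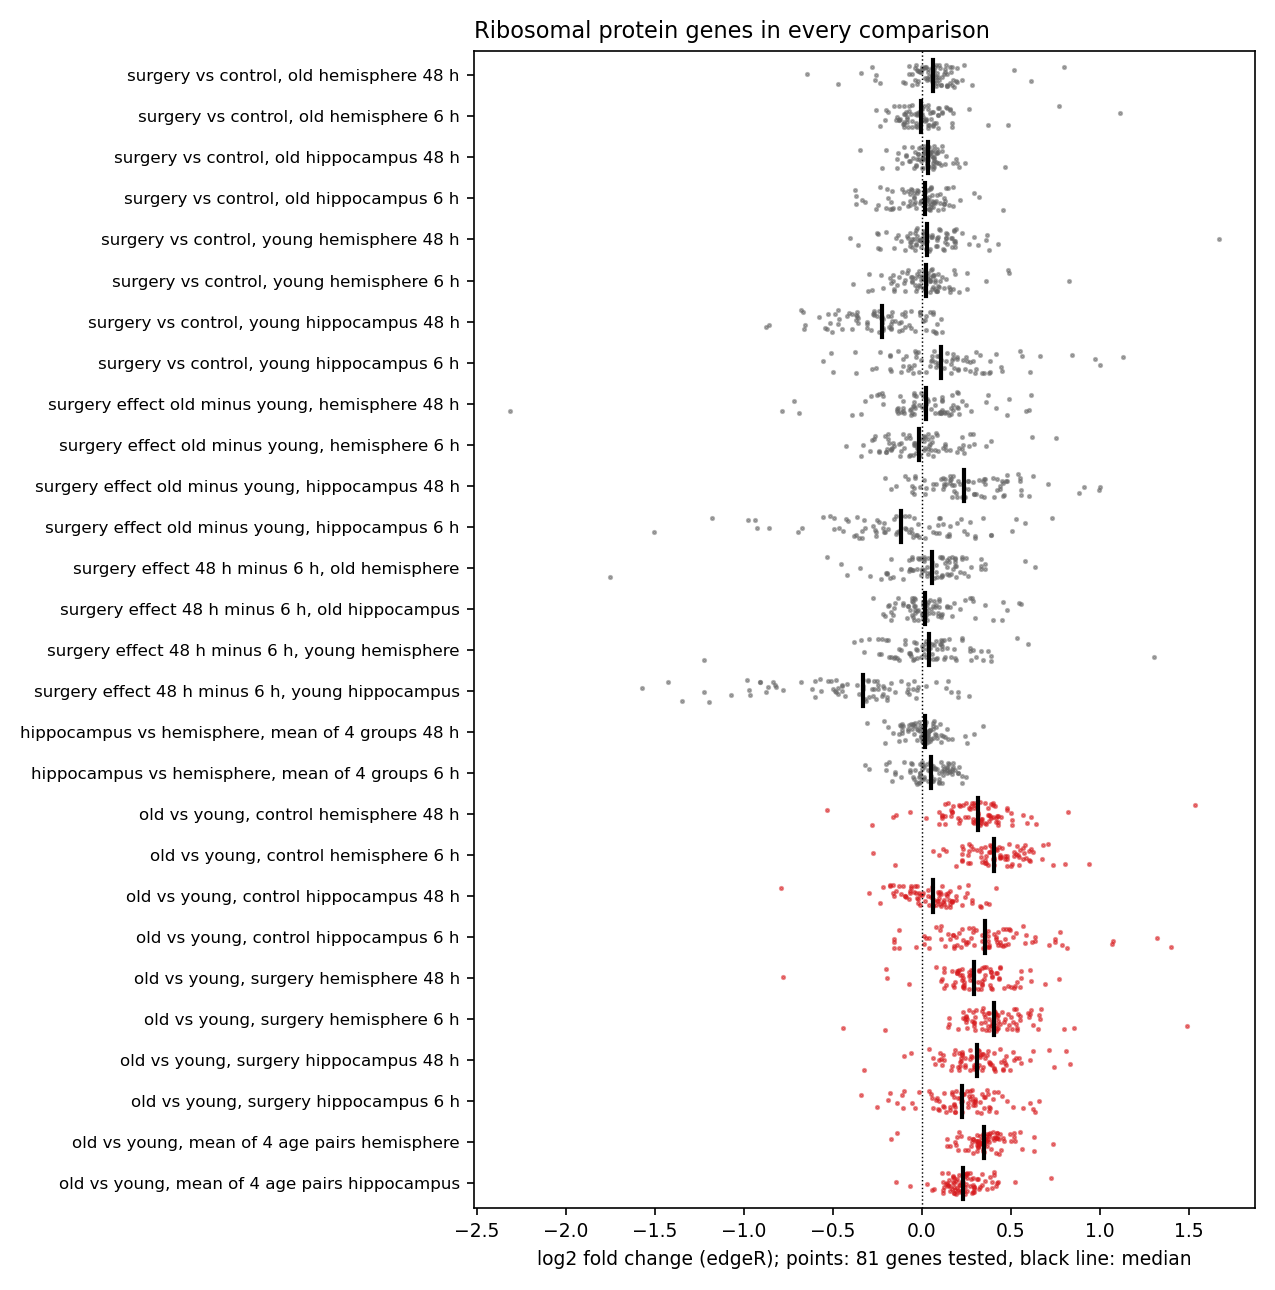
Log2 fold changes of the 81 tested genes in each comparison (points), with their median as a black line; comparisons of old with young are red. Medians of the planned age comparisons lie between 0.06 and 0.41, those of the pooled age comparisons at 0.35 and 0.23, and those of the comparisons in grey between -0.33 and 0.24.

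A pooled comparison was added after these results had been seen. It averages the 4 old-minus-young differences of a region (control and surgery, 6 h and 48 h) in a fit of all 48 libraries of that region, and its p-values are therefore not independent of the pattern that prompted it. In the hemisphere 43 of the 81 genes were called higher in old animals and 0 lower, where 1.67% of all 14144 genes tested were called in either direction. Their log2 fold changes ran from 0.31 to 0.63, or 1.24-fold to 1.55-fold. In the hippocampus 5 of 81 were called higher (Rpl31, Rpl4, Rpl9, Rps4x and Rps6) and 0 lower, where 0.958% of 14510 genes were called, and all 5 were also called in the hemisphere. The median log2 fold change of the 81 genes was 0.35 in the hemisphere (all genes 0.02) and 0.23 in the hippocampus (all genes -0.01), and 79 genes were above 0 in each region, against 54.2% and 49.1% of all genes. At an unadjusted p below 0.05, 71 genes were higher and 0 lower in the hemisphere, against 5.98% and 4.21% of all genes, and 48 and 0 in the hippocampus, against 6.21% and 4.42%.

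These counts depend on the tool, the samples and the filter used. In the hippocampus DESeq2 called 19 and limma-voom 8 of the 81 genes, and without a filter on low counts 1 was called there and 13 in the hemisphere. With only the 13 old animals whose sort numbers lay among those of the young, 5 genes were called in the hemisphere and 1 in the hippocampus, at medians of 0.33 and 0.26. Without the libraries above a summed level of 50 CPM for neutrophil, 300 for choroid plexus or 200 for B cell markers, the hemisphere count was 19, at a median of 0.32. None of these markers was called by edgeR, but in the hemisphere the 5 tested neutrophil markers had a median of 2.53 and the 3 choroid plexus markers 1.79 (3 and 2 of them higher at an unadjusted p below 0.05), against -0.34 and -0.33 in the hippocampus. Their part in the result beyond the count of 19 was not tested. Over the 48 fits that leave out 1 library the hemisphere count ran from 29 (without young control replicate 1 at 48 h) to 46. In the hippocampus that range was 2 to 17, from 2 without young control replicate 3 at 48 h to 17 without young control replicate 2 at 48 h. It was 3 without young control replicate 4 or young surgery replicate 3 at 48 h, 10 without young surgery replicate 2 at 48 h and 11 without young control replicate 3 at 6 h. Among old hippocampus libraries it was 14 without control replicate 5 at 48 h, 9 without control replicate 4 at 6 h, and 8, 13 and 16 without surgery replicates 4, 5 and 6 at 6 h.

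Rps6, a small-subunit protein phosphorylated by the S6 kinases downstream of mTORC1, had the smallest adjusted p in the hippocampus. In the hemisphere its level ran from 50.2 through a median of 66.0 to 78.4 CPM in 16 young libraries and from 63.6 through 83.7 to 119 CPM in 32 old libraries. In the hippocampus it ran from 52.1 through 67.6 to 86.1 CPM in young and from 61.0 through 87.9 to 111 CPM in old libraries. Old libraries were higher on the whole, with overlap in both regions. The log2 fold change was 0.37 (SE 0.075, adjusted p = 0.00189, edgeR) in the hemisphere and 0.34 (SE 0.0694, adjusted p = 0.00425) in the hippocampus.

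Rps4x, the X-linked copy of a small-subunit protein, ran from 94.1 through 129 to 161 CPM in young and from 122 through 167 to 232 CPM in old hemisphere libraries. In the hippocampus it ran from 93 through 134 to 169 CPM in young and from 113 through 166 to 211 CPM in old libraries. Its log2 fold changes were 0.42 (SE 0.0704, adjusted p = 0.000158, edgeR) and 0.29 (SE 0.0684, adjusted p = 0.0172). Again the groups overlapped while the medians were apart.

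Rpl4, a large-subunit protein that reaches into the peptide exit tunnel, had the smallest change of the 5, with log2 fold changes of 0.31 (SE 0.0654, adjusted p = 0.00261, edgeR) and 0.29 (SE 0.0691, adjusted p = 0.0224). Its median was 85.3 CPM in young and 108 CPM in old hemisphere libraries, and 87.97 and 104.85 CPM in the hippocampus. Rpl9, a large-subunit protein, had log2 fold changes of 0.38 (SE 0.0773, adjusted p = 0.0019, edgeR) and 0.31 (SE 0.077, adjusted p = 0.0305). Its median went from 62.7 to 75.1 CPM in the hemisphere and from 63.4 to 78.6 CPM in the hippocampus.

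Rpl31, a protein near the exit of the tunnel, had the largest change of the 5. It ran from 8.73 through 23.4 to 29.95 CPM in young and from 10.3 through 32.8 to 45.9 CPM in old hemisphere libraries, and from 7.28 through 17.6 to 31.3 CPM and from 13.98 through 30.4 to 47.5 CPM in the hippocampus. The log2 fold changes were 0.52 (SE 0.134, adjusted p = 0.025, edgeR) in the hemisphere and 0.73 (SE 0.152, adjusted p = 0.00556) in the hippocampus. With the counts of pseudogene models named after Rpl31 added to the gene, the hippocampal value was 0.29 and not called, and the hemisphere value was 0.57 and called.

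**Figure D4:**
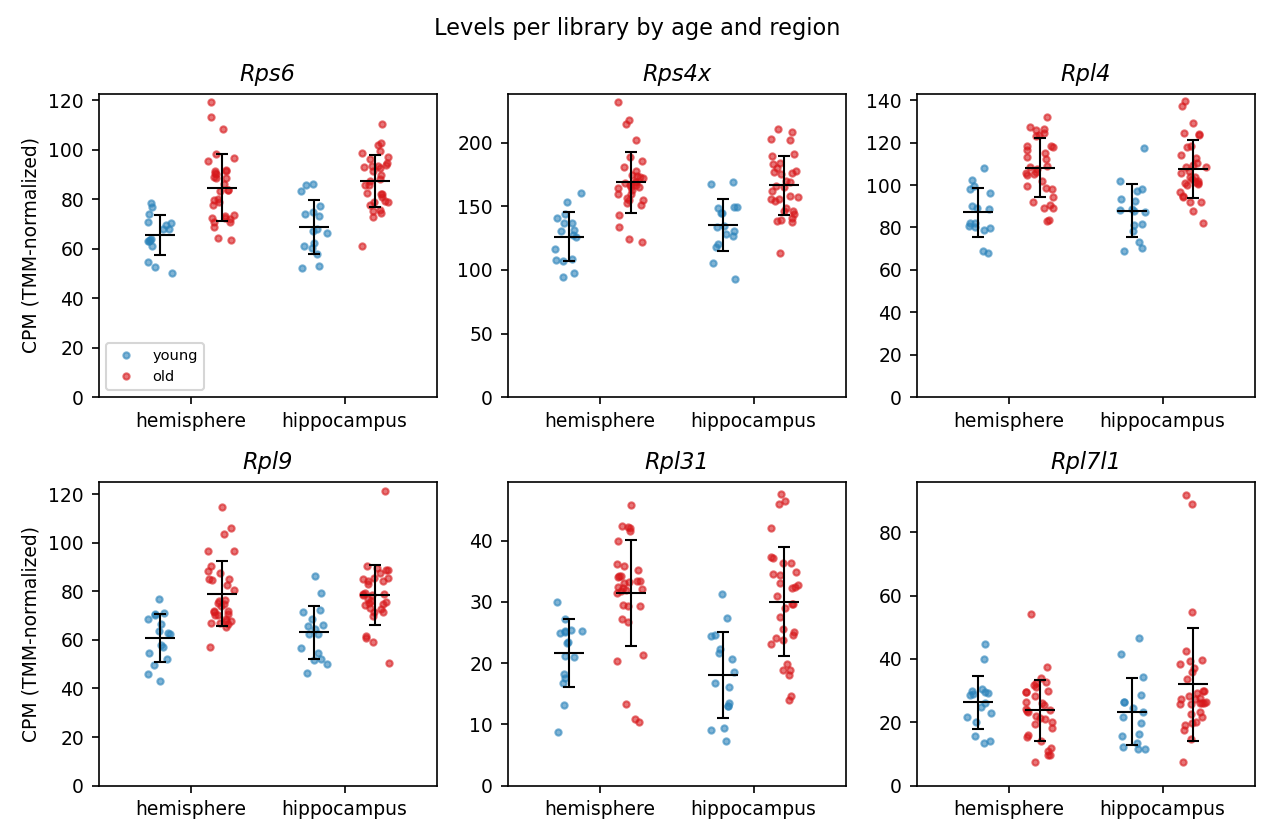
CPM of 6 genes in each library by region and age, with mean and SD in black. For Rps6, Rps4x, Rpl4, Rpl9 and Rpl31 old libraries lie higher with overlap, and for Rpl7l1 young and old hemisphere libraries overlap over most of their range.

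The hemisphere calls were spread over both subunits. Of the 33 small-subunit genes 21 were called and of the 48 tested large-subunit genes 22, with medians of 0.35 and 0.34. The smallest adjusted p-values were those of Rpl23a (log2 fold change 0.5) and Rpl39 (0.55), both 2.14e-05, and the largest called changes were those of Rps20 and Rpl36a, both 0.63. Rpl23a ran from 37.97 through 49.5 to 62.0 CPM in young and from 53.1 through 69.2 to 106.4 CPM in old hemisphere libraries. Rplp0, the stalk base protein often used as a reference gene in PCR, was called too, at a log2 fold change of 0.43 (adjusted p = 0.000196, edgeR), with medians of 84.6 CPM in young and 119 CPM in old libraries.

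A few genes stood outside the common shift. Rps12 had the largest hemisphere estimate, 0.74, but an SE of 0.28 and an adjusted p of 0.253 (edgeR), since it ran from 4.57 to 177 CPM among old hemisphere libraries. Rpl7l1, a paralogue of Rpl7 linked to ribosome assembly, had estimates of -0.17 (SE 0.168) in the hemisphere and 0.42 (SE 0.202) in the hippocampus, neither of them called. Rpl5, which with Rpl11 binds 5S rRNA, had estimates of -0.14 (SE 0.23) and -0.06 (SE 0.227), and Rpl27 0.14 (SE 0.259) and -0.14 (SE 0.237). Both lie among the lowest genes per kb, with means of 24.9 and 14.6 counts per library.

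**Figure D5:**
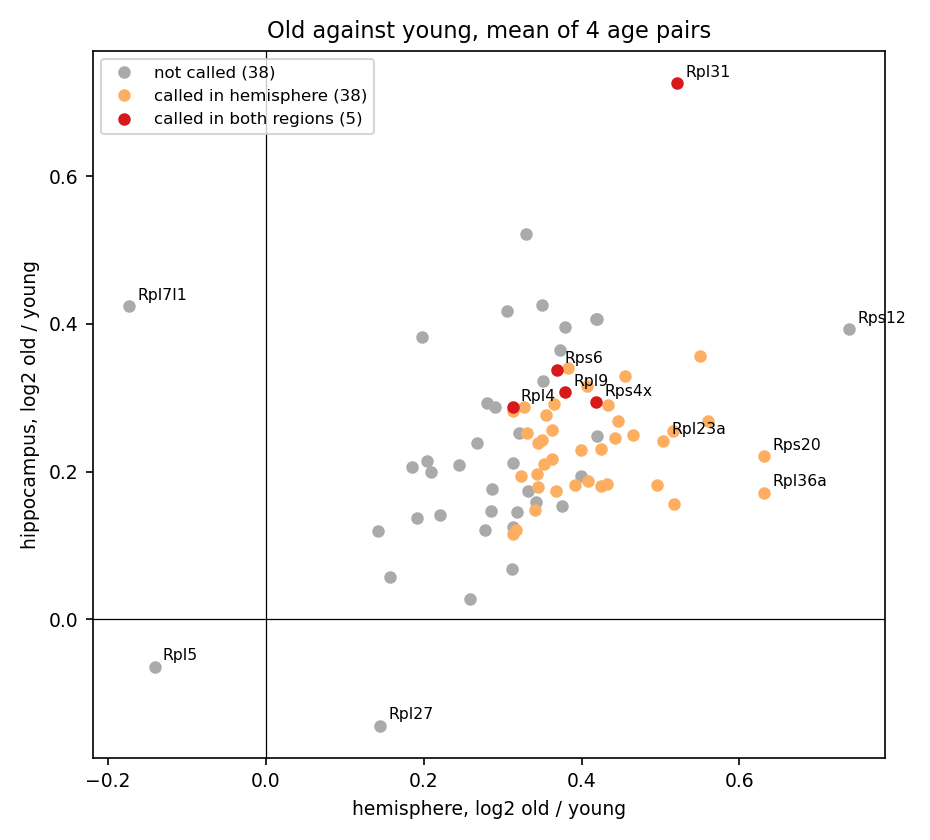
Log2 fold change of old against young (mean of 4 age pairs) in the hippocampus against the hemisphere for the 81 tested genes. The 5 genes called in both regions are red, the 38 called in the hemisphere alone are orange, and Rpl5 has both estimates below 0.

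Counted by group means, 41 of the 81 genes were higher in old animals in all 8 pairs, where 1.96% of 13653 genes tested in both regions were. Both regions come from the same animals, so the 8 pairs are not independent of each other. Many members also varied together within groups, as given below, so this count and the counts of calls above are not of independent genes. In the hemisphere 72 of 81 were higher in all 4 pairs (9.79% of all genes), and in the hippocampus 44 of 81 (8.34%). Rps6, Rpl31, Rpl4, Rpl9 and Rps4x were higher in 8 of 8. These genes were picked by the pooled comparison, which averages the same pairs, so their signs give no separate support.

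The difference in age effect between the regions was tested within animals, also as an addition after the data had been seen. None of the 81 genes was called at either time, nor any of all genes tested (0%), by edgeR. At an unadjusted p below 0.05, 0 were higher and 2 lower in the hippocampus at 6 h, against 2.53% and 1.84% of all genes, and 0 and 2 at 48 h, against 3.61% and 2.26%. DESeq2 called 0 of the 81 at both times. The median difference, hippocampus minus hemisphere, was -0.13 at 6 h (20 genes above 0, against 50.7% of all genes) and -0.1 at 48 h (16 above 0, against 50.7%), with median SEs of 0.188 and 0.171. The larger number of calls in the hemisphere is therefore not shown to be a regional difference.

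Surgery left the family without a call. In the 8 comparisons of surgery with control edgeR called 0 of 81 genes at an adjusted p below 0.05, where 0% to 0.337% of all genes were called (43 of 12760 in old hemisphere at 6 h, 0.337%; 0.0627% in young hemisphere and 0.0876% in old and 0.0365% in young hippocampus at 6 h; 0% in all 4 at 48 h). In old animals the median log2 fold change of the 81 genes was -0.00 (hemisphere, 6 h), 0.02 (hippocampus, 6 h), 0.06 (hemisphere, 48 h) and 0.03 (hippocampus, 48 h). With only old animals sorted among the young, the medians at 6 h were -0.1 in the hemisphere and 0.24 in the hippocampus, again with 0 of 81 called. The median SE of a gene was 0.175, 0.176, 0.14 and 0.139 in these comparisons. In young hemisphere the medians were 0.03 at 6 h and 0.03 at 48 h, with median SEs of 0.241 and 0.206. Single genes needed changes of several SEs to be called: Rps12, at 1.67 (SE 0.499) in young hemisphere at 48 h, was not, with an adjusted p of 1 (edgeR). At an unadjusted p below 0.05, between 0 and 2 genes were higher and 0 or 1 lower in each of these 6 comparisons, where 1.75% to 4.56% of all genes were higher and 1.75% to 4.14% lower, and DESeq2 called 0.

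Young hippocampus was the exception in spread. At 6 h the median was 0.11, with 5 genes above and 2 below at an unadjusted p under 0.05 (4.16% and 3.69% of all genes), and it was 0.02 without the stepped libraries. Rpl13 led with an estimate of 1.13 (SE 0.432, adjusted p = 0.537, edgeR). Its controls were at 12.3, 41.5, 76.1 and 16.4 CPM and its surgery libraries at 66.0, 67.7, 82.6 and 98.7 CPM. Its level is one of those made uncertain by pseudogene copies. The controls at 12.3 and 16.4 CPM are the 2 stepped libraries of this group, and the same 2 libraries were the lowest for Rpl30, at 12.5 and 13.4 CPM beside 57.2 and 35.2 CPM in the other controls.

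At 48 h the young hippocampus median was -0.22, with 13 genes above 0, against 52.9% of all genes, and 10 genes lower and 0 higher at an unadjusted p under 0.05, against 3.31% and 2.8%. Rps7 ran at 12.1, 69.5, 31.4 and 39.0 CPM in controls and 22.4, 19.7, 22.2 and 18.3 CPM after surgery, an estimate of -0.86 (SE 0.326, adjusted p = 0.668, edgeR). The control at 69.5 CPM is replicate 2, the library with the high summed share, and without it the median of the 81 genes was -0.07. Over the 25 fits that leave out 1 library, this median ran from -0.34 to -0.07. The surgery effect at 48 h minus that at 6 h had a median of -0.33 in young hippocampus. Without control replicate 2 at 48 h it was -0.18, and over the 48 fits that leave out 1 library it ran from -0.45 to -0.18. The 4 control libraries at 48 h also held 320 to 1447 CPM of choroid plexus markers, and the 4 after surgery 74.9 to 805 CPM; the part of this in the result was not tested.

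The difference of surgery effects between old and young, and between 48 h and 6 h, gave 0 calls among the 81 genes in all 8 comparisons by edgeR (0% of all genes in each but old hemisphere, 0.17%, and young hemisphere, 0.00707%, over time), and 0 by DESeq2. Over time the medians were 0.06 and 0.02 in old hemisphere and hippocampus and 0.04 in young hemisphere, with 0 genes higher and 1, 0 and 0 lower at an unadjusted p below 0.05 (2.26% to 3.6% of all genes higher, 2.06% to 3.99% lower). In young hippocampus 12 genes were lower and 0 higher at that level, against 4.58% and 3.65% of all genes. Between ages the medians were -0.01 and 0.03 in the hemisphere at 6 h and 48 h and -0.12 and 0.24 in the hippocampus, where at an unadjusted p below 0.05 0, 0, 1 and 3 genes were higher and 0, 2, 5 and 0 lower, against 2.09% to 5.51% and 1.89% to 3.77% of all genes. Without the stepped libraries the hippocampus median at 6 h was 0.1 in place of -0.12, and without young control replicate 2 the one at 48 h was 0.09. Over the 25 fits that leave out 1 library, the hippocampus median at 48 h ran from 0.09 to 0.35. With only old animals sorted among the young, the hippocampus median at 6 h was 0.12, and those over time in old animals were 0.13 in the hemisphere and -0.19 in the hippocampus. Rps12 had the largest single estimate, -2.31 (SE 0.596, adjusted p = 0.608, edgeR) in the hemisphere at 48 h, from young libraries at 11.5, 10.6, 16.5 and 3.94 CPM in controls and 53.6, 43, 22.6 and 12.4 CPM after surgery, and old libraries at 16.4 to 58.4 CPM (median 26.5) in controls and 5.01 to 40.3 CPM (median 19.8) after surgery.

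Between the 2 brain regions no difference passed the test. Within animals, hippocampus against hemisphere gave medians of 0.05 at 6 h (54 of 81 above 0, against 49.5% of all genes) and 0.02 at 48 h (48 of 81, against 48.7%), with 0 of 81 genes called by edgeR, where 0% and 0.0371% of all genes were. Median SEs were 0.0944 and 0.0853. At an unadjusted p below 0.05, 2 genes were higher and 3 lower at 6 h (2.37% and 3.35% of all genes), and 2 and 1 at 48 h (2.17% and 3.13%), and DESeq2 called 0. The largest estimate was that of Rpl15 at 48 h, 0.34 (SE 0.0979, adjusted p = 0.385, edgeR).

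Genes around the ribosomal proteins were read from lists in the same pooled age comparison. Of 23 elongation factors and other mRNAs that carry a TOP motif, 3 were called higher in the hemisphere and 1 in the hippocampus, with medians of 0.25 and 0.13. Beside these list counts, 1.67% of all genes were called in the hemisphere and 0.958% in the hippocampus, and at an unadjusted p below 0.05, 5.98% and 6.21% were higher and 4.21% and 4.42% lower. At that level 13 of the 23 were higher and 0 lower in the hemisphere, and 7 and 1 in the hippocampus. The called genes in the hemisphere were Rack1, a scaffold protein bound to the small subunit (0.41, adjusted p = 0.000908, edgeR), the elongation factor Eef1a1 (0.29) and the initiation factor subunit Eif3k (0.4). Eef1a1 was called in the hippocampus too, at 0.31.

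The mitochondrial ribosomal protein genes, which build the separate ribosome of that organelle, had 0 of 77 tested genes called in the hemisphere and 0 of 78 in the hippocampus, with medians of -0.00 and -0.08. At an unadjusted p below 0.05, 2 were higher and 1 lower in the hemisphere, and 0 and 6 in the hippocampus, so the counts of higher genes lay below the share of all genes. Ribosome biogenesis genes had 0 of 31 called in either region, at medians of 0.07 and 0.02, with 4 and 2 higher and 0 and 1 lower at that level. Of 22 tested genes of the mTORC1 pathway and of TOP control, 0 were called in the hemisphere. In the hippocampus Ddit4, an mTORC1 inhibitor induced by glucocorticoids, was called lower at -1.39 (adjusted p = 0.0305, edgeR). Ddit4 lay near the floor, with a median of 1.0 CPM over all libraries, a mean of 10.1 counts and 0 counts in 19 libraries. Larp1 was not called, at 0.11 and -0.2, and of 13 ribosome quality control genes 0 were. In the hemisphere 5 of 12 microglial markers were called lower, among them P2ry12 at -0.42 and Cx3cr1 at -0.31, against 0 of 12 in the hippocampus.

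Within groups many of the 84 genes also varied together, to differing degrees. After group means were subtracted, log2(CPM + 1) of 78 members with a mean of at least 10 CPM correlated with the summed level at a median Pearson r of 0.65 over the 96 libraries, from 0.09 for Rps12 to 0.87 for Rps28, against a median of 0.06 over 5089 genes. The members are part of the sum, and the libraries share depth and the animal between regions. Against Rplp0 alone, the other 77 members had a lower median r of 0.33, beside 0.06 over the 5089 genes. These values ran from -0.02 for Rps12 to 0.64 for Rpl3. Leaving out pseudogenes, the non-member genes most like the sum were Gm44510 (0.87), Gm17494 (0.77), Fcer1g (0.75), Tyrobp (0.74), Gm5148 (0.73), mt-Rnr2 (0.71), Gm26619 (0.71) and Tpt1 (0.7). For Rplp0 they were Eef1a1 (0.58), Fth1 (0.56), Gapdh (0.54), Ctsl, Arhgdia, Sdhb, Itm2b and C1qb (0.51).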

How the data were processed

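The authors deposited whole numbers per Ensembl gene model, 1 column per library. The header names no unit; the deposited values were treated as estimated counts, since 6 libraries do not look like plain read counts. Genome build mm10 and the programs R 4.2.1 and DESeq2 1.36.0 are listed in the submitters' processing notes. Aligner, counter and gene annotation: not given in the sources used here. Symbols and coordinates came from GENCODE M21 (54495 identifiers matched), promoters from RefSeq, pseudogene matches from blastn 2.17.0. Tests were edgeR 4.0.16 quasi-likelihood fits in R 4.3.3 (TMM, filterByExpr at a minimum count of 10, robust), adjusted by Benjamini-Hochberg at 0.05 over all genes: 1 fit per region and time, 1 per region over both times, and hippocampus against hemisphere with the animal as block. The design assumed raw counts; the stepped libraries were kept as deposited. Alternatives were DESeq2 1.42.0, limma-voom 3.58.1, no filter, libraries or models left out, pseudogene counts added, and the replicate number as block. P-values set a difference between groups against the variation between libraries, with 1 library per animal in each region. That variation holds differences between libraries as well as between animals. In the fits with the animal as block the p-values rest on how the difference between an animal's 2 libraries varies from animal to animal.

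The members and lists were chosen with earlier results of these data known. Named genes were those called in any comparison, the 3 largest estimates in each direction (mean log2 CPM 4 or more), the 5 highest and lowest per kb, paralogue pairs, reference genes and called genes of the lists; the text gives those that bear on a result. Smart-seq2 does not mark strand, so overlapping antisense reads cannot be told apart. Likeness left out pseudogenes, which the written rule did not, and used a pseudocount of 1 and a mean of at least 10 CPM. Scripts were tested on simulated data. Some genes are not reported here.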

Additional observations from a re-analysis of the deposited data

Results flagged for a closer look

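A library far from the rest of its group was looked for in 96 combinations of group and measure (the summed share and the 5 genes called in both regions), by the gap of the highest or lowest library to its neighbour against the range of the group. It was found in 5, and chance gives about 1 in 20. The summed share of the 84 genes was 1.4% in old control hippocampus replicate 5 at 48 h, below the next library at 1.75%. Rpl31 was at 13.4 CPM in old control hemisphere replicate 7 at 6 h, a stepped library, below the next at 29.3 CPM. Rpl4 was at 137 CPM in old surgery hippocampus replicate 8 at 48 h, above the next at 106.5 CPM. Rpl9 was at 115 CPM in old surgery hemisphere replicate 6 at 6 h, another stepped library, above the next at 88.5 CPM, and at 121 CPM in old surgery hippocampus replicate 2 at 6 h, above the next at 89.8 CPM.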

How the results depend on the processing

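In the 26 planned comparisons the main test called 0 members, and 5 of their 896 alternative fits called any. DESeq2 called 4 in old against young control hemisphere at 6 h, 3 in control hippocampus at 6 h and 1 in surgery hemisphere at 48 h; without a filter on low counts 1 was called in control hippocampus at 6 h, and leaving out single libraries gave 0 to 2 there (2 without young control replicate 3). In the added pooled age comparison of the hemisphere, with 43 calls, there were 13 without a filter, 5 with only old animals sorted among the young, 19 without libraries high in markers of other cells, and 29 to 46 over the fits without 1 library. In the hippocampus, with 5 calls, there were 19 by DESeq2, 8 by limma-voom, 1 without a filter, 1 with only old animals sorted among the young, 9 without the 15 largest models, and 2 to 17 without 1 library. The cause was not tested, but 13 in place of 32 old libraries and, without a filter, 49348 in place of 14144 hemisphere genes entered those fits. No result with a test reversed in the alternatives run. With only old animals sorted among the young, hippocampus medians at 6 h were 0.45 for old against young after surgery, 0.24 for surgery in old animals and 0.12 for the difference of surgery effects, and that of the surgery effect over time in old animals was -0.19.

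Deviations of same-numbered animals of different groups correlated above 0.1 in 36 of 110 pairs (median 0.03). The 2 libraries of an animal, which are known pairs, had a median of only 0.06. This check therefore cannot show whether same-numbered animals were paired. With the replicate number as block the pooled age comparison called 34 in the hemisphere and 6 in the hippocampus. In the region fits the animal was the block, though deviations of its 2 libraries correlated above 0.1 in 19 of 48 animals, and 0 were called with no replicate block. Leaving out each old animal in the region fits was not run, and the alternative without libraries high in markers of other cells could not be fitted in the hippocampus, where it removes all 4 young controls at 48 h. Genes with few counts, such as Rpl27, carry SEs too large to show changes of the family's size.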
